A study of Pavo cristatus and Gallus gallus and Meleagris gallopavo with 54 samples.

Results

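The Z chromosome of the duck (Anas platyrhynchos) was followed from one end to the other through the CAGE peaks that the duck table places on it. CAGE (cap analysis of gene expression) sequences the capped 5′ ends of RNA, so that each peak is a transcription start site and its level is the number of its 5′ tags scaled to the total of its library (TPM). Of the 8619 peaks of the duck table, 429 lay on chrZ, and the 7 CAGE tables of the series hold 65218 peaks in all. The 429 peaks belonged to 380 genes, of which 344 had 1 peak and 36 had more, and 39 of the genes carry a LOC identifier and no symbol. All 429 peaks were fitted, and no chrZ peak was left out by a filter. By the annotation in the file, 405 peaks lay within 1 kb of an annotated gene start, 15 between 1 and 3 kb away, and 9 elsewhere. Peak starts ran from position 70064 to 84543824 of chrZ in the assembly ZJU1.0, which gave 17 windows of 5 Mb.

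Male birds carry a pair of Z chromosomes and females carry a single Z and a W, so that most Z genes are present in more copies in males than in females. Birds have no known silencing of a whole Z, and the degree to which a Z gene is evened out between the sexes (dosage compensation) is known to differ from gene to gene. The Z and the W still pair over a pseudoautosomal region at one end, where both sexes carry the same number of copies, and some Z genes outside that region have kept a related copy on the W. The comparison asks which duck Z promoters stay male-high in cultured cells, which are even, and where they lie.

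Embryonic fibroblast cells were isolated from the trunk of duck embryos at the equivalent of chicken stage HH36, after head, limbs, skin and inner organs had been removed, and were sampled at the fifth passage. The female cells came from 1 embryo (01) and the male cells from 2 embryos (02 and 03), and cells of each embryo were grown in DMEM/F12 as well as in high-glucose DMEM, always with fetal bovine serum. This made 2 female CAGE libraries, C31 (DMEM/F12) and C32 (high glucose), and 4 male libraries, C33 and C35 (DMEM/F12) with C34 and C36 (high glucose). Sex and embryo therefore cannot be told apart, since all female cells share 1 embryo, and p-values measure the spread between these cultures. In bulk cultures, fewer cells of a type and less RNA per cell cannot be told apart. One RNA-seq library of the female culture C32 and one of the male culture C34 were also used.

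The step between the lowest TPM values gave a depth of 7006051 tags for C32 and of 10717970 to 11102229 tags for the other 5 libraries. The 65 peaks of chrW served as a check of the sex labels. They summed to 2696 and 3233 TPM in the female libraries, where all 65 had tags, and to 173 to 217 TPM in the male libraries, where 47 to 50 of them were at 0. Peaks were present for 8 of 9 fibroblast markers (the collagens COL1A1, COL1A2 and COL3A1 among them), which summed to 78481 and 86173 TPM in the female and 66582 to 71790 TPM in the male libraries, while vimentin had no peak under its symbol. None of the endothelial, cartilage or nerve markers had a peak, and blood, skeletal muscle and epithelial lists were each represented by 1 gene (CTSS, DES and EPCAM) at 16.5 to 52.8 TPM. The fibroblast markers thus separated the sexes without overlap, and their part in the chrZ differences was not tested.

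Male fibroblast cells had higher chrZ levels than female cells, but by less than the ratio of gene copies. The median chrZ peak was higher in males by 0.63 on the log2(TPM + 1) scale, against 0.13 for the 7861 autosomal peaks, so that chrZ stood 0.50 above the autosomes, or 1.42-fold. That autosomal difference was 0.01 within DMEM/F12 and 0.23 within high glucose. The median autosomal peak was at 24.6 TPM in C32, at 28.95 TPM in C31 and at 28.3 to 29.6 TPM in the male libraries. All ratios described as relative below have the autosomal median of 0.13 taken off. In C31 and C32 the median chrZ peak lay 0.42 and 0.38 below the median autosomal peak of the same library, and in C33, C34, C35 and C36 it lay 0.03, 0.04, 0.09 and 0.01 above it. The 2 female values were below all 4 male values. The mean difference of 0.44 had an exact two-sided permutation p of 0.133, the smallest that 15 arrangements of 4 against 2 libraries allow. This test treats the libraries as separate units although each embryo gave 2 of them, so that it does not measure the spread between embryos. The share of all TPM in peaks that fell on chrZ was 2.55% and 2.66% in the female libraries and 3.77 to 3.93% in the male libraries.

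The spread within chrZ was wide. Relative to the autosomes, the 25th and 75th percentiles of the chrZ peaks were 0.19 and 0.74 and the 10th and 90th percentiles were -0.07 and 0.96, whereas the same percentiles of autosomal peaks were -0.41 and 0.41. Of the 429 peaks, 61 lay below the autosomal median, 65 between 0 and 0.25 above it and 198 between 0.25 and 0.75 above it. Peaks within 0.25 of the autosomal median made up 24.5% of chrZ (105 peaks) and 61.3% of the autosomes. At the other end, 8.86% of chrZ peaks (38) exceeded the autosomal median by more than 1, against 1.81% of autosomal peaks. A chrZ peak was thus seldom female-high, but evenness and a full copy-number ratio both occurred.

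With limma over all 8619 peaks, 122 chrZ peaks of 114 genes were called higher in males at an adjusted p under 0.05 and 1 was called higher in females, which left 306 uncalled. Over all 8619 peaks 3.19% were called higher in males and 1.28% higher in females, and among autosomal peaks 1.88% were called higher in males. On chrZ the male share was 28.4%. All 4 male libraries exceeded both female libraries at 295 chrZ peaks (68.8%), against 23.1% of all duck peaks, and all 4 fell below both at 7 (1.63%), against 7.4% of all duck peaks. The called peaks had a median relative ratio of 0.84 and a median level of 41.5 TPM, and the uncalled ones 0.36 and 22.5 TPM, so that not being called did not mean being even. After centring on the autosomal median 91 peaks were called higher in males, 90 of them among the 122, when 2.38% of all duck peaks were called in that direction. TMM scaling changed the split of calls over all duck peaks from 71.4% higher in males (275 against 110) to 53.3% (188 against 165), and left 86 male-higher calls on chrZ.

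The number of calls depended on single libraries and on the embryos. Without C31 it was 72, without C32 it was 22 (0.708% of all duck peaks were then called higher in males), without C33 it was 73 and without C35 it was 55. With 1 value per embryo, which leaves 1 female value, no chrZ peak was called by limma. The median ratio itself moved little. Relative to the autosomes it was 0.48 between embryo 02 and the female embryo and 0.52 between embryo 03 and the female embryo, and it was 0.50 within DMEM/F12 and 0.48 within high glucose. Both male embryos lay above the female embryo, each relative to its own autosomal median, at 340 chrZ peaks (79.3%), against 33.7% of autosomal peaks.

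Along the chromosome, the first 5 Mb stood apart from all that followed. Its 38 peaks had a median relative ratio of -0.04, that is 0.97-fold, whereas the medians of the other 15 windows with at least 10 peaks ran from 0.43 (10 to 15 Mb) to 0.68 (75 to 80 Mb), or 1.35- to 1.60-fold. None of these 15 overlapped the autosomes: of 207 autosomal windows of the same length with at least 10 peaks, the lowest median was -0.40 and the highest 0.29. The remaining window (30 to 35 Mb) held 8 peaks with a median of 0.38. Beyond the first window every 5 Mb median was therefore male-high, with windows that differed little from one another beside the spread of peaks within them (a 25th to 75th percentile range of 0.40 to 0.92 at 75 to 80 Mb and of 0.23 to 0.69 at 10 to 15 Mb). In windows of 2.5 Mb some medians fell within the range of the autosomal 5 Mb windows: 0.28 at 12.5 to 15 Mb (12 peaks), 0.27 at 62.5 to 65 Mb (7 peaks) and 0.18 at 80 to 82.5 Mb (3 peaks), and at 27.5 to 30 Mb 60.0% of 15 peaks lay above the autosomal median.

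**Figure D1:**
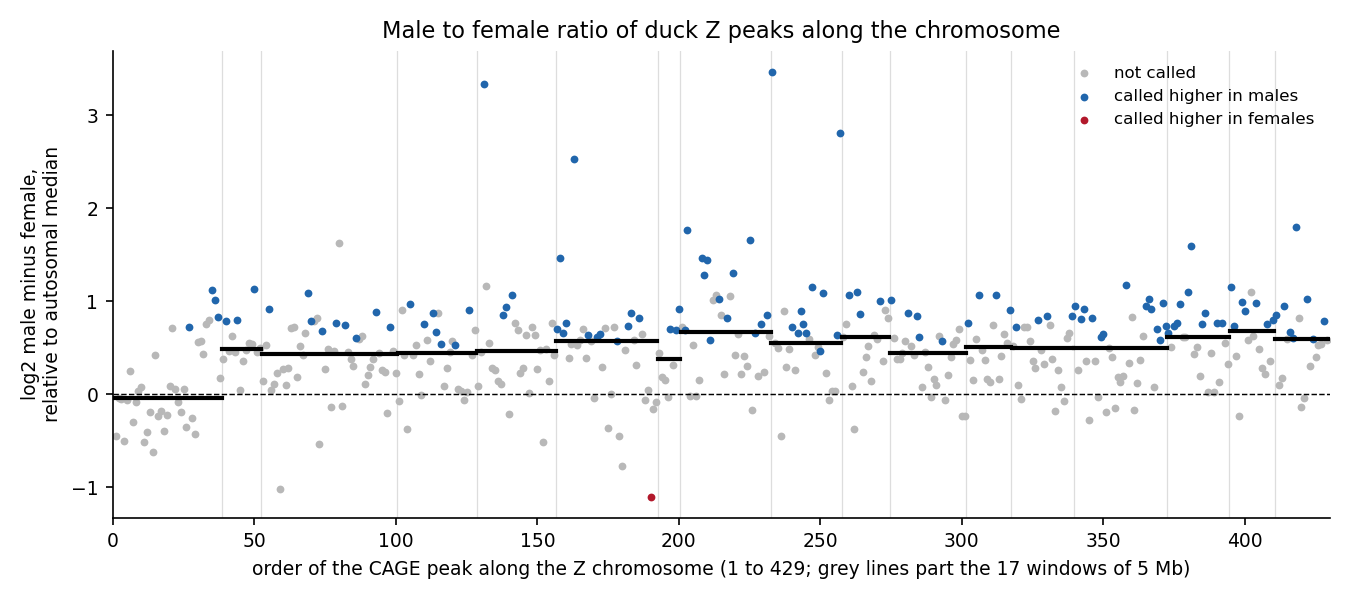
Log2 male minus female ratio of each of the 429 duck chrZ peaks, relative to the autosomal median (dashed line), in their order along the chromosome. Points are peaks coloured by the limma call, black bars are medians of the 17 windows of 5 Mb, and the first window has a median of -0.04 while the highest reaches 0.68.

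The change fell inside the first window. Of its peaks, the 30 in the first 2.5 Mb had a median of -0.13 with 20 below the autosomal median, and the 8 between 2.5 and 5 Mb had a median of 0.78 with none below it. In the first 2.5 Mb the median peak lay 0.59 (C31) and 0.12 (C32) under the autosomal median of the female libraries and 0.30 to 0.38 under it in the male libraries, so that the male values fell between the female ones. In the 8 peaks that followed, the female libraries lay 0.37 and 0.35 under and the male libraries 0.30 to 0.55 over the autosomal median. The sexes overlapped on one side of the change and were well apart on the other.

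Read gene by gene, the first 2.5 Mb held LMAN1 and SEC11C, which work in the export of secreted proteins, the asparaginyl-tRNA synthetase NARS1, the transcription factor TCF4, the DNA polymerase POLI, the methyl-CpG-binding protein MBD2, and SMAD4, the common mediator of TGF-β signals. NARS1 was at 355 and 330 TPM in the female libraries (C31, C32) and at 287, 283, 334 and 314 TPM in the male libraries (C33 to C36). The ribosomal protein gene RPL17, at 2.14 Mb, had 821 and 738 TPM in females and 679, 633, 706 and 648 TPM in males. NARS1 and RPL17 are the strongest promoters of this window, and neither was male-high: RPL17 was lower in every male library than in either female library (log2 difference -0.23, SE 0.11, limma adjusted p = 0.309) and NARS1 overlapped between the sexes (-0.17, SE 0.12, adjusted p = 0.460).

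The last peak at or under the autosomal median before the change belonged to DYM at 2.15 Mb (relative ratio -0.43), and from SMAD7 at 2.34 Mb on all 9 peaks of the window were above it, at 0.17 to 1.12. This order was noticed after the values had been seen. In RNA-seq of 1 culture of each sex SMAD7 went the other way (relative ratio -0.65, with CAGE of the same cultures at -0.17). SMAD7 and SMAD2, an inhibitor and a mediator of TGF-β and activin signals, had relative ratios of 0.57 and 0.44 (adjusted p = 0.284 and 0.0812). CZH18orf25, the augmin subunit HAUS1 and ATP5F1A, the α subunit of the mitochondrial ATP synthase, were called. ATP5F1A, at 3.43 Mb, had 191 and 166 TPM in females against 388, 339.96, 335 and 328 TPM in males (log2 difference 0.96, SE 0.12, adjusted p = 0.00594). Against this order, SKA1, a spindle protein at 1.96 Mb, had a relative ratio of 0.72 without passing the test (adjusted p = 0.0896). LOC113840433 at 2.14 Mb was called higher in males (relative ratio 0.72, adjusted p = 0.0175) although its neighbours RPL17 and CZH18orf32 were not, and its call, the only one in the first 2.5 Mb, was lost after centring (adjusted p = 0.0624). The files do not say where the duck pseudoautosomal region ends, and its part in this change was not tested.

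**Figure D2:**
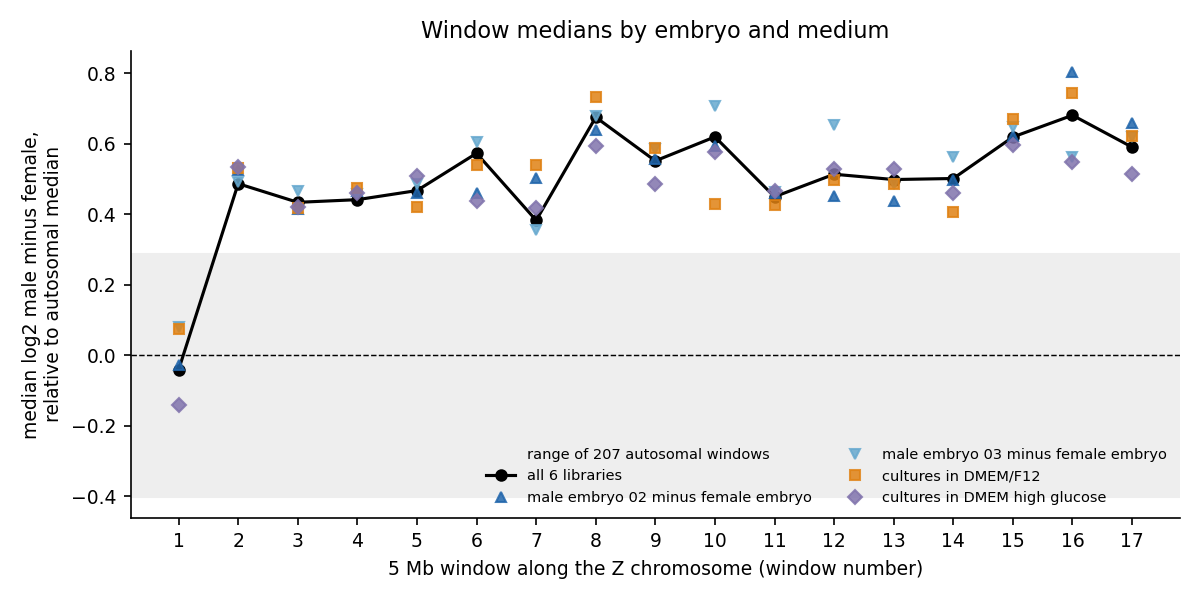
Median log2 male minus female ratio of the chrZ peaks in each of the 17 windows of 5 Mb, relative to the autosomal median, over all 6 libraries and separately for each male embryo and each medium. The grey band spans the medians of 207 autosomal windows (-0.40 to 0.29), and the first window is the only one inside it.

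Beyond 2.5 Mb, 121 of 399 peaks (30.3%) were called higher in males and 90 (22.6%) lay within 0.25 of the autosomal median, against 15 of 30 before it. The windows of highest median were 75 to 80 Mb (16 peaks, 7 called) and 35 to 40 Mb (32 peaks, median 0.68, 13 called). At 75 to 80 Mb every male embryo and medium gave a median between 0.55 and 0.80. Its 2 strongest promoters were the ribosomal protein gene RPS23, with 552 and 540 TPM in females and 1024, 1074, 1033 and 632 TPM in males (log2 difference 0.75, SE 0.22, adjusted p = 0.116), and LOC119714536, with 453 and 478 TPM in females and 932, 952, 769 and 799 TPM in males (0.88, SE 0.13, adjusted p = 0.0111). Both were higher in every male library, with 1 male library of RPS23 (C36) far under the other 3. Called neighbours included AK6, an adenylate kinase of the nucleus (34.6 and 76.3 TPM as female and male means), and CCNH, the cyclin of the CDK-activating kinase. Not every promoter of this window was male-high: the peak of ZFYVE16, an endosomal protein, had a relative ratio of -0.23.

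Neighbouring genes resembled each other only weakly. Over 379 pairs of adjacent chrZ genes, each represented by its strongest peak, the log2 ratios had a Pearson r of 0.15 and a Spearman rho of 0.16 across genes, which share all libraries and are not independent replicates. Of 16 pairs of genes whose start sites faced apart within 1 kb, 5 pairs had both partners called higher in males, 5 had 1 and 6 had none. Over all chrZ peaks 28.4% were called, which is a share of single peaks and cannot be set against counts of pairs. The matching share for pairs was not computed. Here the facing peaks were used, which are not always a gene's strongest. Their median absolute difference was 0.32, the same as that of adjacent genes in general (0.32). SREK1IP1 and CWC27, both linked to pre-mRNA splicing and 255 bp apart, were both called at their facing peaks (relative ratios 0.85 and 0.94), although the strongest peak of CWC27 lay elsewhere at a relative ratio of 0.12 and was not called, as were the chaperone DNAJA1 and the DNA repair enzyme APTX (0.58 and 0.98). LOC106017447 and ZSWIM6, 357 bp apart, differed by 2.17 (relative ratios 3.34 and 1.17), and ZSWIM6 was not called. POLK and CERT1, 552 bp apart, differed by 1.99: the translesion polymerase POLK had a relative ratio of 2.53 and the ceramide transporter CERT1 one of 0.54.

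The most male-high promoters exceeded a copy-number ratio by far. When called peaks averaging 10 TPM or more were ranked by their ratio, the first was that of LOC106017447 (chrZ:21117980-21118157, minus strand, at its gene start), with 1.53 and 2.00 TPM in the female libraries and 30.4, 34.9, 26.6 and 26.9 TPM in the male libraries. The male mean of 29.7 ± 3.88 TPM (SD, n = 4) was 16.8 times the female mean of 1.77 ± 0.33 TPM (SD, n = 2), a log2(TPM + 1) difference of 3.47 (SE 0.18, adjusted p = 4.09e-05). HABP4 (chrZ:44948992-44949149, plus strand), a hyaluronan- and RNA-binding protein, was at 6.49 and 4.85 TPM in females and at 42.4, 53.8, 46.2 and 59.1 TPM in males (difference 2.94, SE 0.19, adjusted p = 0.000109). POLK (chrZ:26220709-26220989, minus strand) was at 2.07 and 2.57 TPM in females and at 14.8, 16.7, 22.99 and 27.4 TPM in males (2.66, SE 0.27, adjusted p = 0.0018). In all 3 the sexes were far apart in both media. The differences of LOC106017447 and HABP4 were 3.35 and 3.12 without C31 and 3.59 and 2.77 without C32. C31 and C32 share 1 embryo, so that leaving either out does not measure the spread between embryos. Like all chrZ peaks, these 3 were not called with 1 value per embryo. Peaks entered the table on reaching 10 TPM in at least 1 library. These 3 did so in male libraries only, so that their high ratios are not independent of that rule.

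Further down that ranking the ratios were smaller. It held RFK, which makes the flavin FMN (difference 1.79), the prostaglandin reductase PTGR1 (1.72), WDR41, known from mammals as part of a complex with C9ORF72 (1.60), ISCA1, a factor of iron-sulfur cluster assembly (1.28), and the mitochondrial ribosomal protein MRPL50 (1.28). MRPL50 was the steadiest of them, with 18.3 and 18.98 TPM in females and 46.5, 48.8, 45.7 and 45.8 TPM in males (SE 0.12, adjusted p = 0.00130). RFK was at 14.4 and 16.6 TPM in females and 41.9, 61.4, 53.1 and 72.1 TPM in males, and its call, like those of PTGR1 and WDR41, was lost without C31 (adjusted p = 0.0512, 0.0931 and 0.0534) and without C32 (0.0662, 0.128 and 0.116). One weaker peak, named after its values were seen, had the largest ratio of chrZ: PRUNE2 had 0 and 0.14 TPM in females and 5.49, 16.6, 9.43 and 22.4 TPM in males, a fitted difference of 3.59 (SE 0.49, adjusted p = 0.00753) that depends on the pseudocount. PRUNE2 too met the entry limit of 10 TPM in male libraries only. Other male-high peaks with low female levels can share this limit, and they were not counted.

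The most even promoters lay in many places along the chromosome. TARS1, the threonyl-tRNA synthetase at 11.8 Mb, was at 98.9 and 91.2 TPM in females and at 106, 93.0, 93.5 and 90.2 TPM in males (difference 0.01, SE 0.12, adjusted p = 0.982). JAK2, the kinase of many cytokine receptors at 29.8 Mb, was at 13.4 and 14.7 TPM in females and at 11.5, 15.8, 14.3 and 17.3 TPM in males (0.05, SE 0.19). MBD2, at 1.24 Mb, was at 24.4 and 21.98 TPM in females and at 21.8, 20.999, 24.6 and 22.1 TPM in males (-0.05, SE 0.14). The sexes overlapped in each of them.

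The other 5 peaks of smallest difference were CAST, the inhibitor of the calpain proteases (-0.01, SE 0.17), LOC101792525 (-0.02, SE 0.15), RCL1, a factor of ribosomal RNA processing (-0.03, SE 0.18), APBA1, an adaptor protein known from neurons (-0.04, SE 0.17), and LOC101792505 (-0.05, SE 0.18). With adjusted p-values of 0.872 to 0.984 and standard errors of 0.12 to 0.19, an evenness of these 8 peaks cannot be told from small differences. The median autosomal peak was itself higher in males by 0.13 (0.01 within DMEM/F12 and 0.23 within high glucose, where C32 was the female library). All 8 therefore lay 0.08 to 0.18 below the autosomal median, and the differences above 0 of TARS1 and JAK2 turned negative after centring.

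AK3, a mitochondrial adenylate kinase (chrZ:29734414-29734696, minus strand, at its gene start), was the only chrZ peak called higher in females. It was at 42.8 and 44.0 TPM in the female libraries and at 21.2, 24.9, 20.5 and 20.2 TPM in the male libraries. The female mean was 2.00 times the male mean (43.4 ± 0.86 TPM, SD, n = 2, against 21.7 ± 2.16 TPM, SD, n = 4), a log2 difference of -0.97 (SE 0.14, adjusted p = 0.0113). It was lower in every male culture than in either female culture, also within each medium. Its call was lost without C31 (adjusted p = 0.0598) and without C32 (0.115), while the difference stayed at -0.99 and -0.95. Its neighbour RCL1, at 29.8 Mb, had a difference of -0.03, which was 0.20 without C31 and -0.27 without C32.

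The next-lowest chrZ ratios did not pass the test. LOC101800696 had 20.2 and 20.1 TPM in females and 21.2 and 15.3 TPM in embryo 02 but 7.05 and 4.85 TPM in embryo 03, so that the 2 male embryos differed more than the sexes did (difference -0.89, SE 0.51, adjusted p = 0.378). PGM5, a protein of cell-matrix junctions, had 74.1 and 33.5 TPM in females and 39.5, 27.1, 39.6 and 23.8 TPM in males (-0.64, SE 0.34, adjusted p = 0.349). Its highest value was in C31, but within each medium the female culture was above both male cultures. In RNA-seq of C32 and C34 PGM5 had 90.9 and 47.1 CPM (relative ratio -0.96). CCDC68, a centriole protein at 1.17 Mb, had 41.4 and 42.7 TPM in females and 33.1, 30.1, 28.1 and 27.8 TPM in males (-0.49, SE 0.13, adjusted p = 0.0950) and did not overlap between the sexes. LOC119714472 had 41.1 and 31.7 TPM in females and 30.3, 30.7, 29.03 and 19.5 TPM in males (-0.41, SE 0.22, adjusted p = 0.353).

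**Figure D3:**
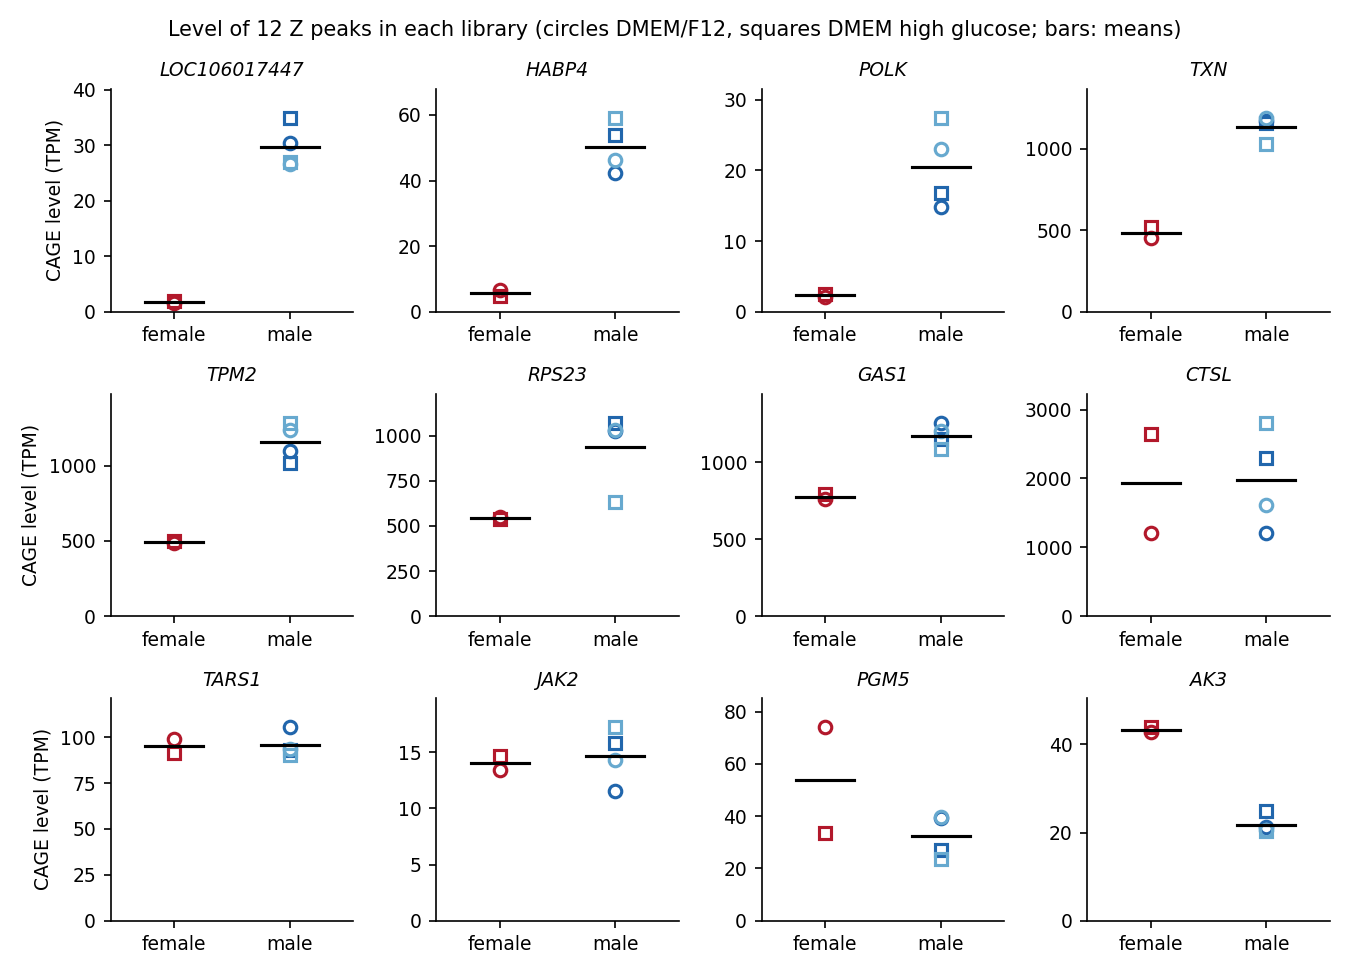
CAGE level in TPM of the strongest peak of 12 chrZ genes in each library, female cells in red and male cells in dark blue (embryo 02) or light blue (embryo 03), circles for DMEM/F12, squares for DMEM high glucose and bars for means, each axis starting at 0. LOC106017447, HABP4, POLK, TXN and TPM2 separate the sexes upward and AK3 downward, while TARS1, JAK2 and CTSL overlap.

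By expression level, strong chrZ promoters were at least as male-high as weak ones. Peaks were divided at 14.2, 28.2 and 67.9 TPM, the quartiles of the mean level over all duck peaks. From the lowest to the highest class the median relative ratio of chrZ was 0.43 (109 peaks), 0.45 (110), 0.56 (113) and 0.58 (97), while that of the autosomal peaks was 0.01, -0.01, -0.01 and 0.02. The gain from the lowest to the highest class, each against the autosomes of the same class, was 0.14, and it was 0.10 with a pseudocount of 0.1 and 0.25 with one of 5. The mean level holds more male than female libraries, so that a male-high ratio itself lifts a peak in class. With classes set by the mean of the female and male means the gain was 0.13. Weak peaks that met the entry limit in male libraries only, such as PRUNE2, are also among those classed. The 25th to 75th percentile ranges of the classes overlapped widely (0.09 to 0.70 in the lowest and 0.31 to 0.74 in the highest). The number called was 17, 22, 42 and 41, as the median standard error of a chrZ peak fell from 0.22 to 0.15, so that these numbers are not comparable between levels.

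**Figure D4:**
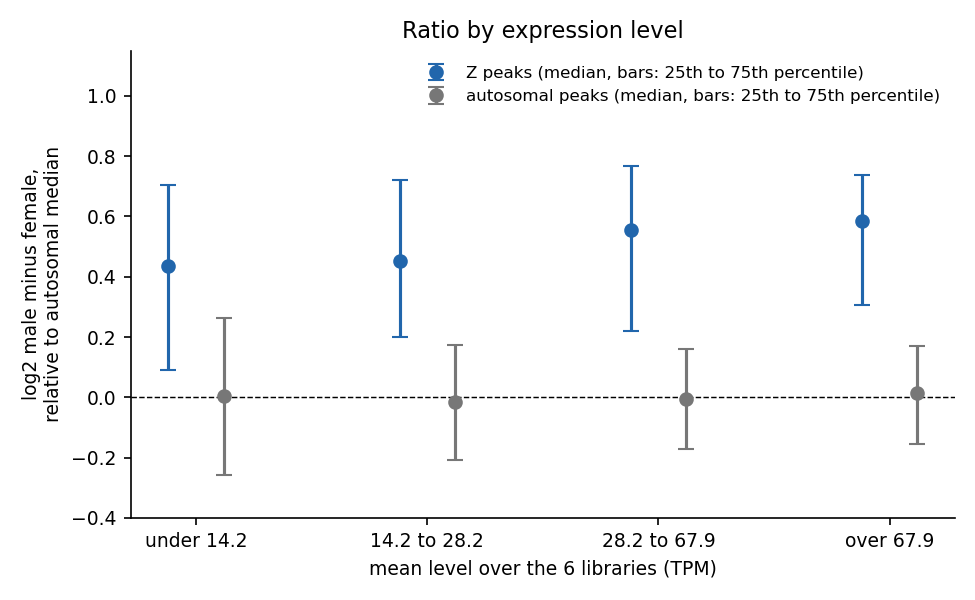
Log2 male minus female ratio of chrZ and autosomal peaks, relative to the autosomal median, in 4 classes of mean level in TPM. Points are medians and bars span the 25th to 75th percentile, and the chrZ medians are 0.43, 0.45, 0.56 and 0.58 from left to right.

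The 5 strongest chrZ promoters were CTSL, GAS1, TPM2, TXN and RPS23, and they covered the range from even to a full copy-number ratio. CTSL, the lysosomal protease cathepsin L, was at 1213 and 2649 TPM in females and at 1210.0, 2300.5, 1616 and 2812 TPM in males, so that its level followed the medium within each embryo (difference between the sexes 0.07, SE 0.40, adjusted p = 0.935). GAS1, a co-receptor of hedgehog ligands, was at 761 and 795 TPM in females and at 1259, 1149.7, 1205 and 1084 TPM in males (0.59, SE 0.11, adjusted p = 0.0297). TPM2, the β-tropomyosin of contractile cells, was at 487 and 503 TPM in females and at 1099, 1018, 1239 and 1287 TPM in males (1.22, SE 0.13, adjusted p = 0.00253). TXN, the redox protein thioredoxin, was at 450.2 and 521 TPM in females and at 1169, 1159, 1189 and 1032 TPM in males (1.23, SE 0.12, adjusted p = 0.00159). The male means of TPM2 and TXN were both 2.34 times the female mean. The GAS1 call was lost after centring (adjusted p = 0.117), while those of TPM2 and TXN remained (0.00849 and 0.0078).

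Genes with a known or reported W partner were described apart, because a female may carry a second, related copy of them. Some of them are named by the study for zebra finch and not for duck, so that a W copy in duck is not shown. Part of this list is made of duck genes that the study named as not differing between the sexes in these same samples. The list is therefore not independent of them. Its number called and its median ratio are partly set by how it was drawn, and no conclusion on W partners is drawn from them. Of the 34 genes of the list with a chrZ peak, 8 were called higher in males and none higher in females, against 114 of all 380 chrZ genes called higher in males, and their 41 peaks had a median relative ratio of 0.47, against 0.50 over chrZ. Called members were the transcriptional coactivator SUB1 (257 and 235 TPM in females, 471, 435, 489 and 444 TPM in males), ATP5F1A and BTF3. The others called were the chromatin reader SPIN1, the RNA-binding protein HNRNPK, the ubiquitin-linked proteins UBAP2 and ZFAND5 and the zinc finger protein ZNF131. Among those not called were HINT1, whose W copy is female-specific in chicken (345 against 485 TPM as means, relative ratio 0.36, adjusted p = 0.0634), the chromatin remodeller CHD1 (0.75, adjusted p = 0.136) and MAP1B (-0.45, adjusted p = 0.531). Tags of a Z copy and of a similar W copy could have been exchanged in mapping, which was not tested.

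Of 9 cell cycle and genome maintenance genes with a chrZ peak, 4 were called higher in males (POLK, CCNH, CENPK and CKS2), and all 10 of their peaks had every male library above both female ones. Over chrZ 114 of 380 genes were called and 68.8% of peaks had all male libraries above, and these shares stand beside each list that follows. The median relative ratio of the cell cycle list was 0.75. CKS2, a binding partner of cyclin-dependent kinases, was at 6.77 and 5.85 TPM in females and at 21.8, 15.4, 16.9 and 11.8 TPM in males (difference 1.23, SE 0.24, adjusted p = 0.0356). Like POLK, CKS2 reached the entry limit of 10 TPM in male libraries only. The counts and the median of this list are therefore not independent of that rule. CENPK, a kinetochore protein, was at 13.6 and 15.7 TPM in females and at 35.9, 25.3, 42.4 and 38.3 TPM in males (1.20, SE 0.22, adjusted p = 0.0253). In the list of ribosomal and mitoribosomal genes, which also holds BTF3, 4 of 8 genes had a called peak, MRPS27 and MRPL50 of the mitochondrial ribosome and BTF3 among them, while RPL37 and MRPS36 had relative ratios of 0.23 and 0.27 and did not pass. Of 8 chaperone and ubiquitin genes 4 were called (DNAJA1, UBQLN1, UBAP2 and ZFAND5), with a median relative ratio of 0.56 over 10 peaks.

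Of 11 matrix genes with a chrZ peak 3 were called higher in males: the elastic-fibre protein FBN2 (31.6 and 27.3 TPM in females, 56.8, 71.1, 66.1 and 70.0 TPM in males), the metalloprotease ADAMTS12 and the hyaluronidase CEMIP2. The collagen cross-linker LOX, the strongest after CTSL, had female and male means of 448 and 412 TPM (relative ratio -0.28, adjusted p = 0.752). The 3 of 11 matrix genes were close to the share of 114 in 380 over chrZ. Of 7 mitochondrial energy genes 2 were called, also near that share, ATP5F1A and the complex I subunit NDUFS4 (difference 0.67, adjusted p = 0.0185), and the other 5 had relative ratios of -0.17 to 0.08, which made the median of the list 0.00 (-0.0045).

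No member passed among 9 cytokine and growth factor receptors and their kinases (median 0.27) or among 7 cholesterol, lipid and lysosomal genes (median 0.49), where 114 of 380 chrZ genes passed in all. The natriuretic peptide receptor NPR3 had a relative ratio of 1.62 but scattered, with 39.1 and 17.4 TPM in females and 84.8, 47.6, 142 and 116 TPM in males (adjusted p = 0.0886). Of 8 TGF-β, activin and hedgehog genes GAS1 alone was called. FST, the activin antagonist follistatin, had means of 12.4 and 25.7 TPM in females and males (0.88, adjusted p = 0.133). IL6ST and JAK2, the only innate sensing genes of the list with a peak, had relative ratios of 0.03 and -0.08. Among genes with a role in the avian gonad, FST and HINT1 had a peak and the testis factor DMRT1 had none.

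Peaks of one gene did not always share a ratio. In the 36 genes with several chrZ peaks the median range between them was 0.34, and in 2 of them, BNC2 and TNPO1, it exceeded 1. All peaks were called in 2 of the 36 genes, some in 12 and none in 22. TNPO1, a nuclear import receptor, had its strongest peak at a relative ratio of 0.73 and its second at -0.36. SPIN1 had a called strong peak (69.1 and 51.5 TPM in females, 109, 172, 126 and 156 TPM in males, relative ratio 1.07) and a weaker one that was nearly even (0.09). In TPM2, the called strong peak (1.09) stood beside 5 weaker ones, 1 of them called.

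The media gave no called difference on chrZ. Between the 3 high-glucose and the 3 DMEM/F12 cultures no chrZ peak passed limma's adjusted p of 0.05 (smallest 0.702). An unadjusted p under 0.05 was found at 10 of 429 chrZ peaks and at 198 of all 8619 duck peaks. Of all duck peaks 2 passed (0.0232%). Cultures of one embryo deviated together when sex was not taken out, and with the embryo as a replicate block no chrZ peak passed either. In that fit 45 chrZ peaks had an unadjusted p under 0.05. The matching number over all duck peaks is not given, so that it is not read as a result about chrZ. CTSL, whose level was higher in high glucose in each embryo, was not called in this comparison.

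RNA-seq of 1 female and 1 male culture gave a chrZ shift of similar size. There were no replicates, so no test was made. Of the 380 genes 377 had at least 10 counts in the 2 libraries (which total 21977052 and 43168955 counts for female and male), and their median log2 ratio of counts scaled to the library total (CPM, with 0.1 added) was 0.53 above that of autosomal genes, against 0.48 for CAGE of the same 2 cultures and 0.51 for all 6 CAGE libraries. Of the 114 called genes, 113 were among the 377 and all 113 lay above the autosomal median, as did 87.3% of all 377. The called genes had a median of 0.73, against 0.43 for the other chrZ genes. Both cultures were among the 6 that gave the calls, so that the RNA-seq values are not independent of the calls. Across genes the RNA-seq and CAGE ratios of the same cultures had a Pearson r of 0.68 and a Spearman rho of 0.58 (377 genes, which share 2 cultures and are not independent). In RNA-seq the first 5 Mb had a median of -0.01 over 33 genes, and the other windows had medians of 0.35 to 0.71. That first window spans the change seen in CAGE. Before the change RPL17, DYM and NARS1 had relative ratios of -0.86, -0.46 and -0.16, but LOC113840433 had 1.71 (2 and 23 counts). After it ATP5F1A, HAUS1 and SMAD2 had 0.74, 0.90 and 0.94, but SMAD7 had -0.65. The parts on either side were not summarised apart in RNA-seq.

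The RNA-seq ratio was smaller than the promoter ratio for some leading genes and larger for others. PRUNE2 had 1.00 CPM in the female and 28.3 CPM in the male library (relative log2 ratio 4.68, against 3.72 in CAGE of the same cultures). LOC106017447 had 1.46 CPM in the female and 19.2 CPM in the male library (relative log2 ratio 3.62, against 3.36 in CAGE), and AK3 had 22.5 and 9.38 CPM (-1.27 against -1.02). HABP4, by contrast, had 54.0 and 77.5 CPM, a ratio of 0.51 against 3.00 in CAGE, and POLK had 27.8 and 57.1 CPM (1.02 against 2.09). TPM2 was at 0.35 against 0.79 and TXN at 0.51 against 0.93, while FBN2 was at 1.39 against 1.13. RPL17 was lower in the male library (1677 and 934 CPM, ratio -0.86). Some of the most even promoters were not even in RNA-seq: JAK2 had 26.5 and 36.9 CPM (0.46 against -0.12) and APBA1 had 10.4 and 16.8 CPM (0.67 against -0.20), while TARS1 had 273 and 233 CPM (-0.24 against -0.20). RNA-seq counts reads over the whole gene and CAGE counts starts at the listed peaks.

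**Figure D5:**
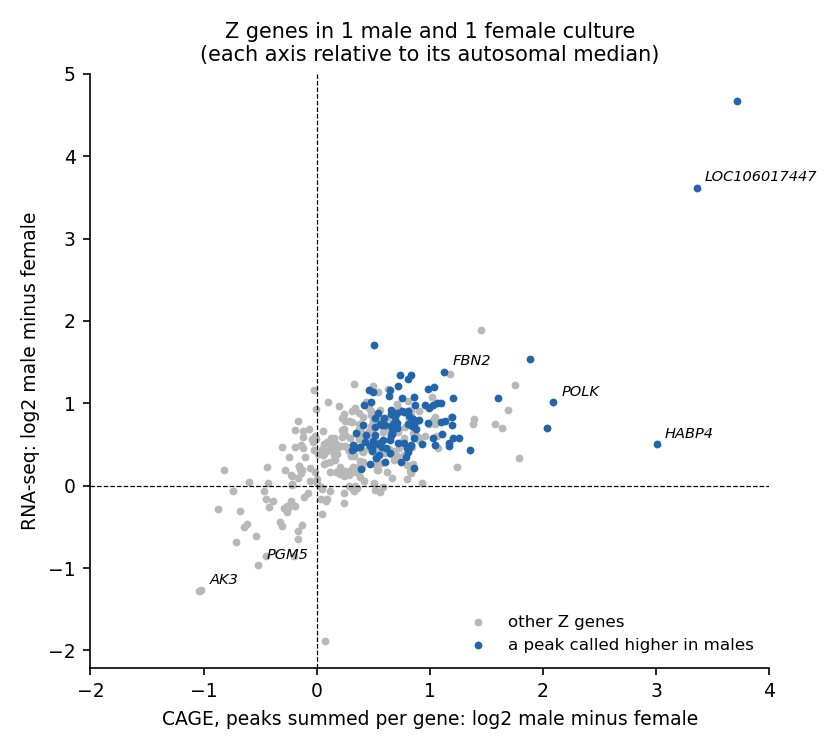
Log2 male minus female ratio of 377 chrZ genes in RNA-seq (CPM) against CAGE (TPM, peaks summed per gene) of the same female and male culture, each relative to its autosomal median. Blue points are genes with a peak called higher in males over the 6 CAGE libraries. All of them lie above 0 on the RNA-seq axis, as do 87.3% of all 377 genes. HABP4 lies far to the right with an RNA-seq ratio of 0.51.

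Genes of the same symbol in chicken, quail and zebra finch fibroblasts were set beside the duck genes, each species relative to the median of its genes that are not on duck chrZ. The match was by symbol alone and did not use the chromosome in the other species, and it is given as a description only. By symbol 244 of the 380 duck genes matched in chicken (2 male and 4 female libraries), 281 in quail (2 and 4) and 276 in zebra finch (1 and 3), with median ratios of 0.53, 0.53 and 0.72. In chicken and in quail both male libraries came from 1 embryo and the female libraries from 2 embryos, each grown in both media. All zebra finch libraries were grown in high glucose. The genes called in duck had medians of 0.73, 0.77 and 0.89 there, and the uncalled ones 0.44, 0.46 and 0.63. In duck and each of the other 3 species in turn, the ratios had a Pearson r across genes of 0.26, 0.19 and 0.31. Of 194 genes with a value in all 4 species, 97 exceeded 0.25 in each, 15 exceeded 0.75 in each and none lay within 0.25 in each. The 15 included POLK, ARSK, APTX, CCNH, CENPK, the clathrin light chain CLTA, the dynactin subunit DCTN3 and the DNA repair protein XPA. The matching shares of genes off duck chrZ, or of unrelated species, were not computed. These counts are therefore not read as a result about genes shared between species.

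The most female-high and most male-high duck genes had the same direction in some of the other species and not in others. AK3 had a ratio of -1.10 in duck and -1.08 in chicken (means of 8.58 and 19.4 TPM in male and female cells) but 0.00 in quail (-0.00064) and 0.86 in zebra finch. HABP4 was 2.82 in duck and -0.94 in chicken, and POLK was 2.53 in duck and 0.99, 0.76 and 1.24 in chicken, quail and zebra finch. JAK2, among the most even duck peaks, had ratios of 0.09, 0.41 and 0.16, and RPL17, not male-high in duck (-0.35), had 1.89 in zebra finch. The zebra finch ratios rest on 1 male library and those of chicken and of quail on 1 male embryo each. Differences between species were not tested.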

How the data were processed

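Duck CAGE values were deposited as TPM (tags scaled to the library total, also called RPM). Per the study's methods, the authors trimmed the CAGE reads and mapped them by BWA 0.7.10-r789 and HISAT2 2.1.0 to the assembly ZJU1.0, grouped 5′ tags into peaks that reached 10 TPM in at least 1 sample, and assigned genes by ChIPseeker 1.32.0. The RNA-seq gene counts were made by the authors with HTSeq 2.0.1, and 2 further columns of RNA-seq values in that file were not used. All peaks of the duck file carry the promoter label.

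Sexes, and media, were compared by limma 3.58.1 in R 4.3.3 (a trend of variance with level, and no covariate) on log2(TPM + 1), which understates changes of low peaks. Adjusted p-values are Benjamini-Hochberg values over 8619 peaks. The procedure was tested on simulated data with independent libraries. The shared embryos were not simulated, so that this does not check the spread between embryos. Windows, level classes and lists are described by medians (Python 3.11.15, pandas 2.3.3). The text names the 10 called peaks of largest male excess and the 8 of smallest difference (mean level of 10 TPM or more for both), the female-higher call and 5 lowest ratios, the 5 strongest peaks, the 2 strongest of the highest and lowest window, and list members. Results of some peaks that this rule selects are not reported here, and peaks named for their position or neighbours were chosen after their values were seen. Members and lists were chosen with earlier results of these data known. Alternatives are given with the closing remarks. Cultures of one embryo deviated together between media (correlations of 0.73 to 0.77), and the shared embryo is in the labels, so that the media are paired by embryo. Sex was not taken out of these deviations, so that the correlations include the sex difference. With sex in the model, the consensus correlation between cultures of an embryo, a different measure, was 0.11.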

Additional observations from a re-analysis of the deposited data

Results flagged for a closer look

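In 2 of the 47 sets of 4 male values examined, 1 library stood far from the other 3, and chance alone sets about 1 in 20 such sets apart. RPS23 was at 632 TPM in C36 against 1024 to 1074 TPM in the other 3 male libraries, and LOC119714472 was at 19.5 TPM in C36 against 29.03 to 30.7 TPM. Among the 8 most even peaks, 4 had both male cultures on one side of the female culture in DMEM/F12 and on the other side in high glucose: CAST (log2 male minus female -0.23 and 0.22 in the 2 media), RCL1 (-0.28 and 0.22), APBA1 (-0.15 and 0.0638) and LOC101792505 (0.15 and -0.24). These peaks were chosen for a difference near 0 over both media together, so that opposite signs in the 2 media follow in part from that choice. The signs are also not relative to the autosomes, whose median difference was 0.01 in DMEM/F12 and 0.23 in high glucose. The high-glucose values of CAST, RCL1 and APBA1 lay below that 0.23. Each of the 4 peaks rests on 1 female culture per medium, and the difference between the media was not tested.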

How the results depend on the processing

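The 122 chrZ peaks called higher in males became 0 with 1 value per embryo and 196 at an adjusted p under 0.1, and ran from 22 to 91 when a library was left out. The single female-higher call became 0 with 1 value per embryo and 2 at an adjusted p under 0.1, and was 0 or 1 without a library. With the embryo as a random replicate block 102 male-higher calls were made. The other alternatives gave 86 to 124, among them 122 for peaks within 3 kb of a gene start, an alternative chosen after seeing the data. The library shift kept its sign (0.38 to 0.47). The rest of chrZ exceeded the first window by 0.57, and by 0.67 with windows of 2.5 Mb, 0.40 with 10 Mb, 0.49 with peaks summed per gene, 0.45 with a pseudocount of 5, and 0.45 to 0.66 without a library. The gain with level, 0.14, became 0.25 with a pseudocount of 5 and 0.13 to 0.21 without a library. No named peak that was called changed sign. Count tests with edgeR or DESeq2 were not run, and the promoter class alone is the whole table. With 1 female embryo, small differences were not detectable.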
